A study of Xenopus laevis with 3 samples.

Results

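The miR-181 family was followed across 3 small RNA libraries, 1 for each rearing condition (n = 1 per condition). Its members were chosen by a rule on names, with earlier results of these data known. They were every Xenopus entry of the deposited table named miR-181, whatever its letter or arm, together with the common carp entry ccr-miR-181c. This rule took 5 of the 1272 mature microRNA entries, namely 4 under the prefix xtr (Xenopus tropicalis) and 1 under ccr, and none under xla (Xenopus laevis) or xbo (Xenopus borealis). Neuronal tissue was cut from the accessory olfactory bulb, a forebrain region that receives vomeronasal signals, of Xenopus laevis larvae at stage 45, aged 15 days. The libraries came from larvae of the orphan condition, of the non-sibling condition and of the sibling condition. No genetic change or agent is named for any of them. The labels give 15 larvae without saying whether that is per condition, so pooling of animals within a library is not settled. With 1 library per condition no test between conditions was possible. Intervals of ratios between libraries compare those libraries, not the conditions, and all intervals below cover counting error only, since the reads carry no molecular identifiers and copies of 1 molecule may be counted repeatedly.

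miR-181 is a vertebrate microRNA family whose hairpin precursors yield a guide strand from the 5′ arm, which is loaded into Argonaute, and a passenger strand from the 3′ arm, most of which is usually discarded. Target messenger RNAs are recognised mainly through the seed, bases 2 to 8 of the guide. In vertebrate genomes miR-181a and miR-181b are made from paired neighbouring hairpins, so that 1 guide sequence can come from several loci while the passenger strands differ between them. The family is abundant in brain and in the thymus. In mice miR-181a tunes the sensitivity of the T cell receptor, in rat neurons it represses an AMPA receptor subunit, and in medaka fish miR-181a and miR-181b act in the wiring of the retina.

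The sequences show which members can share targets and which can share reads. Capitals mark bases 2 to 8, counted from 1 at the 5′ end, and the sequences are those of the deposited table.
xtr-miR-181a-5p: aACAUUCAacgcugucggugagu
xtr-miR-181b: aACAUUCAuugcugucgguggg
ccr-miR-181c: cACAUUCAuugcugucgguggg
xtr-miR-181a-2-3p: aCCAUCGGccguugacuguacc
xtr-miR-181a-1-3p: aCCAUCGAucguugacuguaca

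The 3 guide-type members had 1 seed, and of all 1272 entries the 20 with this seed were all named miR-181. miR-181b differed from miR-181a by A9U, C10U and A21G, all outside the seed. ccr-miR-181c differed from xtr-miR-181b by the single substitution A1C at the first base. The passenger strands of the miR-181a hairpins differed from each other by G8A, C9U and C22A, read from xtr-miR-181a-2-3p to xtr-miR-181a-1-3p, so the last base of the seed window was not shared. The table lists xtr-miR-181a-5p under 1 hairpin, but both miR-181a hairpins are known to give this guide, and its count cannot be split between them.

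The libraries differed in depth, with total counts of 22538325 in the orphan, 5188106 in the non-sibling and 865654 in the sibling library. Levels are given as scaled CPM, counts per 1000000 counts, with the effective library size from trimmed means of M values (TMM). A single count stood for 0.0460 scaled CPM in the orphan, 0.152 in the non-sibling and 1.41 in the sibling library, so the sibling library set the precision of both comparisons that used it. All 5 members passed the minimum of 30 counts summed over the libraries.

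The family included a member that ranked high among the distinct Xenopus sequences in every library. Its members together made up 2.95% of the orphan library's counts (exact binomial 95% interval 2.94 to 2.96%), 2.70% of the non-sibling library's (2.69 to 2.71%) and 2.14% of the sibling library's (2.11 to 2.18%). The totals here sum all 1272 entries, in which entries of several species count largely the same reads. These are therefore shares of counts and not of reads, and the intervals treat repeated counts as separate. Of the counts of the 170 distinct Xenopus sequences, the 4 Xenopus members took 14.8%, 13.6% and 10.1% in the orphan, non-sibling and sibling libraries. Both shares of counts were thus highest in the orphan and lowest in the sibling library. On the scaled level the order differed, with 30574 scaled CPM for the summed members in the orphan, 21297 in the non-sibling and 26251 in the sibling library. The place of the non-sibling and sibling libraries therefore depended on the scaling.

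**Figure D1:**
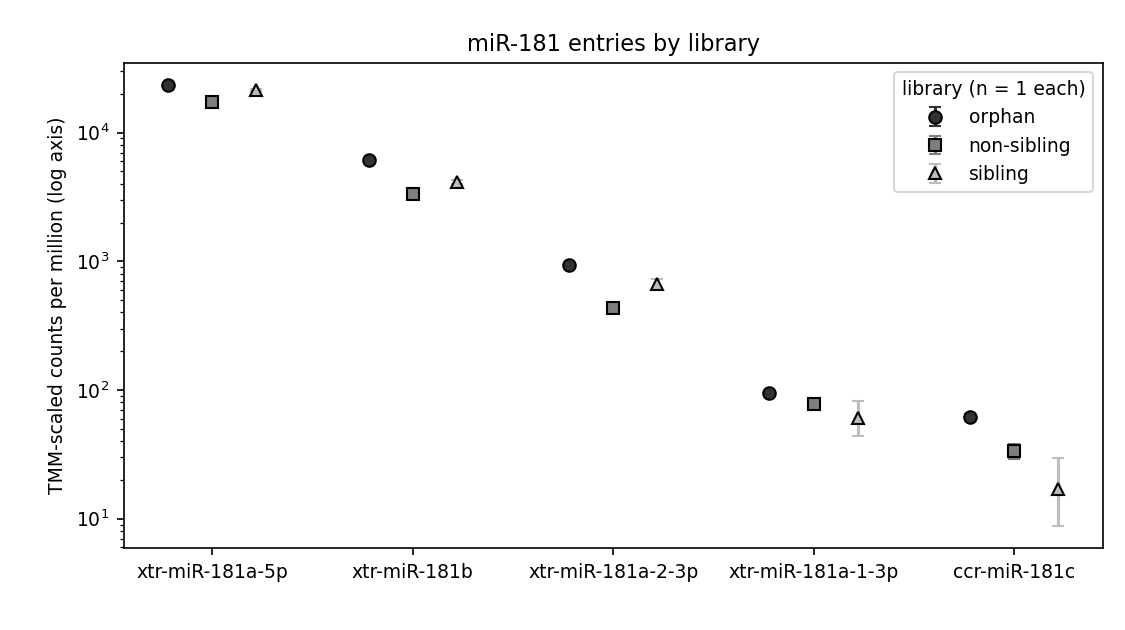
Scaled CPM (log axis) of the 5 miR-181 entries in the orphan, non-sibling and sibling libraries, 1 library each, with exact 95% Poisson intervals, most of them smaller than the symbols. xtr-miR-181a-5p lies between 17407 and 23335 scaled CPM, and each further entry from left to right lies lower in every library.

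The guide miR-181a was the leading member. xtr-miR-181a-5p had 507792 counts in the orphan, 114477 in the non-sibling and 15138 in the sibling library, or 23335, 17407 and 21402 scaled CPM. It held 76.3% of the family's counts in the orphan, 81.7% in the non-sibling and 81.5% in the sibling library. It ranked 2nd among the distinct Xenopus sequences in the orphan and non-sibling libraries and 4th in the sibling library. Its level in the orphan library was 1.09 times that in the sibling library (95% counting interval 1.07 to 1.11). The ratio of the non-sibling to the sibling library was 0.813 (0.7997 to 0.827), and that of the orphan to the non-sibling library was 1.34 (1.33 to 1.35). All 3 ratios lay within the 2-fold size used for a call, and the first of them was near 1.

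The guide miR-181b, which shares the seed, was several times less abundant. xtr-miR-181b had 133643 counts in the orphan, 22000 in the non-sibling and 2906 in the sibling library, or 6141, 3345 and 4109 scaled CPM. The orphan library exceeded the sibling library by a ratio of 1.49 (1.44 to 1.55) and the non-sibling library by 1.84 (1.81 to 1.86). For the non-sibling over the sibling library the ratio was 0.814 (0.783 to 0.847), close to the ratio of miR-181a in that comparison. Hence the guides had like ratios between the non-sibling and sibling libraries, and unlike ratios where the orphan library was compared.

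The ratio of the guides within a library needs no scaling between libraries. For every 100 counts of miR-181a the orphan library held 26.3 of miR-181b (26.2 to 26.5), the non-sibling library 19.2 (18.9 to 19.5) and the sibling library 19.2 (18.4 to 19.98). miR-181b thus took a larger part of the guide pool in the orphan library than in either of the others. The ratio in the orphan library was 1.37 times that in the sibling library (1.32 to 1.43) and 1.37 times that in the non-sibling library (1.35 to 1.39). Between the non-sibling and sibling libraries the interval held 1, with 1.001 (0.96 to 1.04), which bounds a difference at this depth but does not show that the conditions are alike.

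**Figure D2:**
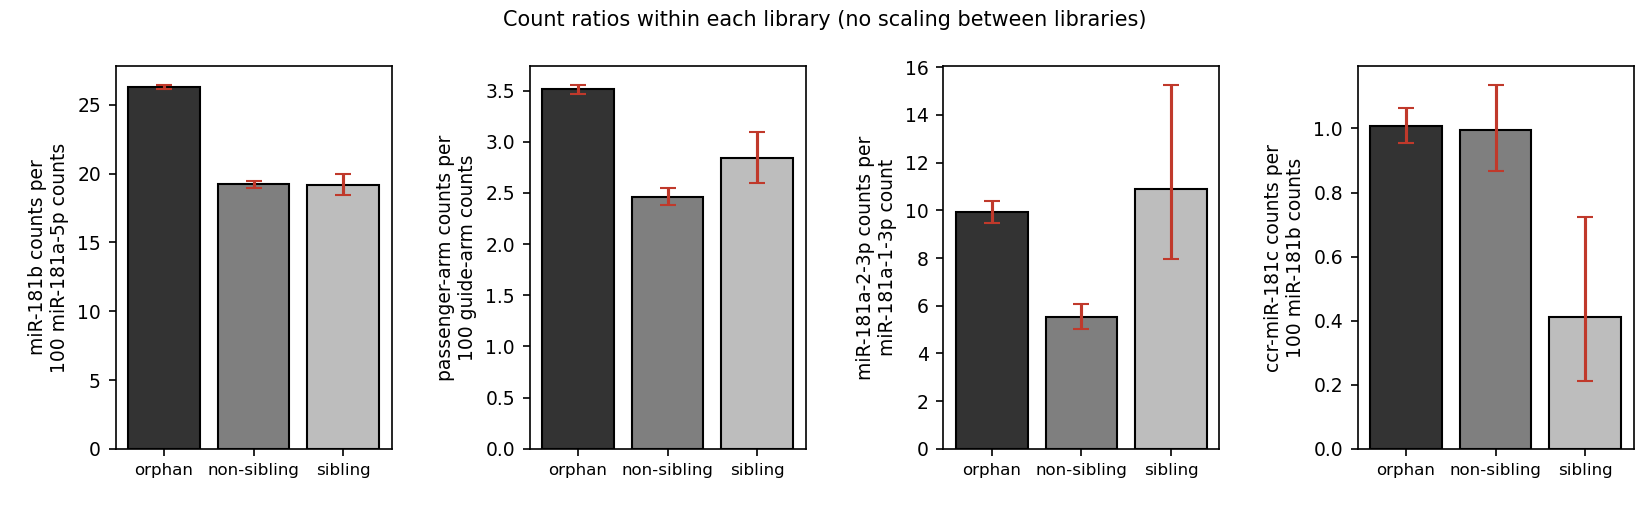
Count ratios between miR-181 entries within the orphan, non-sibling and sibling libraries, from left to right miR-181b per 100 miR-181a-5p counts, passenger per 100 guide counts, miR-181a-2-3p per miR-181a-1-3p count and ccr-miR-181c per 100 miR-181b counts; bars are single libraries with exact 95% counting intervals. The orphan library stands apart in the first panel (26.3 against 19.2 and 19.2), the non-sibling library in the third (5.54) and the sibling library in the fourth (0.413).

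The passenger strands were rare beside the guides. For every 100 guide counts of miR-181a and miR-181b the summed passenger strands numbered 3.51 (3.47 to 3.56) in the orphan, 2.46 (2.38 to 2.55) in the non-sibling and 2.84 (2.59 to 3.10) in the sibling library. The intervals of the libraries did not overlap, and the orphan ratio was 1.43 times the non-sibling ratio (1.38 to 1.48) and 1.24 times the sibling ratio (1.13 to 1.36). The non-sibling ratio was 0.867 times the sibling ratio (0.789 to 0.955). Passenger strands of miR-181b have no Xenopus entry among these members, so the sum covers the miR-181a hairpins.

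The passenger strand entries of the miR-181a hairpins, unlike the shared guide, differ in sequence. They had unlike ratios in the comparisons with the non-sibling library, but could not be told apart in orphan over sibling. Both are Xenopus tropicalis sequences, and whether they tell apart the hairpins of Xenopus laevis was not tested. xtr-miR-181a-2-3p had 20466 counts in the orphan, 2845 in the non-sibling and 469 in the sibling library, or 940 scaled CPM in the orphan, 433 in the non-sibling and 663 in the sibling library. Its orphan-to-non-sibling ratio was 2.17 (2.09 to 2.26), its orphan-to-sibling ratio 1.42 (1.29 to 1.56) and its non-sibling-to-sibling ratio 0.652 (0.592 to 0.721). Under TMM scaling this strand was lowest in the non-sibling library, but under total counts its non-sibling-to-sibling ratio was 1.01, with 548 CPM in the non-sibling and 542 CPM in the sibling library. xtr-miR-181a-1-3p had 2062 counts in the orphan, 514 in the non-sibling and 43 in the sibling library, or 94.8, 78.2 and 60.8 scaled CPM. Its ratios were 1.21 for the orphan over the non-sibling library (1.10 to 1.34) and 1.56 for the orphan over the sibling library (1.15 to 2.16). For the non-sibling over the sibling library the ratio was 1.29, with an interval that held 1 (0.941 to 1.798), whereas under total counts it was 1.99 (1.46 to 2.79).

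The balance of these strands was compared directly, a comparison chosen after the values were seen. There were 9.93 counts of xtr-miR-181a-2-3p for each count of xtr-miR-181a-1-3p in the orphan library (9.49 to 10.4), 5.54 in the non-sibling library (5.04 to 6.09) and 10.9 in the sibling library (7.97 to 15.3). The non-sibling balance was 0.507 times the sibling balance (0.357 to 0.706), and the orphan balance was 1.79 times the non-sibling balance (1.61 to 1.99). The orphan and sibling libraries could not be told apart at this depth (0.91, interval 0.648 to 1.25). Set against their shared guide, xtr-miR-181a-2-3p stood at 4.03, 2.49 and 3.10 counts per 100 counts of xtr-miR-181a-5p in the orphan, non-sibling and sibling libraries. The same figures for xtr-miR-181a-1-3p were 0.406, 0.449 and 0.284, the last of them on 43 counts. The low balance in the non-sibling library thus came with both less of the first strand and slightly more of the second per guide than in the orphan library.

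ccr-miR-181c was the rarest member. It had 61.9 scaled CPM in the orphan, 33.3 in the non-sibling and 17.0 in the sibling library, or 59.7, 42.2 and 13.9 CPM before TMM scaling. The orphan value stands for 1346 counts. The orphan-to-non-sibling ratio was 1.86 (1.61 to 2.15), close to the ratio of 1.84 for xtr-miR-181b, from which it differs by its first base. Per 100 counts of xtr-miR-181b it had 1.01 (0.954 to 1.06) in the orphan, 0.995 (0.867 to 1.14) in the non-sibling and 0.413 (0.213 to 0.722) in the sibling library. The orphan ratio to miR-181b was 2.44 times the sibling ratio (1.39 to 4.74), and the non-sibling ratio was 2.41 times the sibling ratio (1.35 to 4.74). The sibling value rests on 12 counts.

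Other entries 1 substitution away from xtr-miR-181b, named here after their values were seen, were far rarer. bta-miR-181d, with the substitution C12U, had 27, 7 and 0 counts in the orphan, non-sibling and sibling libraries. oan-miR-181c-5p, with the substitution G11A, had 38, 5 and 0 counts. In the sibling library 0 counts allow up to 0.103 counts per 100 counts of xtr-miR-181b, whereas bta-miR-181d stood at 0.0202 in the orphan library, so both were below what the sibling library could show. Whether ccr-miR-181c counts are reads of miR-181b with another first base was not tested, and no Xenopus miR-181c entry is among the members.

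Entries of other species with the same bases as a Xenopus guide repeated its values. The 19 further entries named miR-181 included aca-miR-181a, identical to xtr-miR-181a-5p, with 509395, 114745 and 15168 counts in the orphan, non-sibling and sibling libraries. bta-miR-181a, cfa-miR-181a and ccr-miR-181a, which end at another base, had 511539, 507641 and 507224 counts in the orphan library. aca-miR-181b, identical to xtr-miR-181b, had 133268, 22075 and 2909 counts. Over 6 miR-181a entries of 19 to 24 bases the ratio of orphan over sibling ran from 1.090 to 1.094, and over 6 miR-181b entries it ran from 1.489 to 1.495. These entries count largely the same reads, so this narrow spread reflects the counting of 1 library and is no replicate error.

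Calls were read against the background of all entries. A call required a ratio of 2 or more (higher) or of 0.5 or less (lower), with 1 outside the interval. In orphan over sibling 1 of 5 members was higher and none lower, where 9.12% of the 866 entries used were higher and 15.5% lower. The member called was ccr-miR-181c, at 3.65 times the sibling level (2.08 to 7.07). In non-sibling over sibling none of the 5 was higher or lower, where 11.2% of entries were higher and 12.1% lower. ccr-miR-181c came nearest, at 1.96 times the sibling level (1.10 to 3.86). In orphan over non-sibling 1 of 5 was higher and none lower, where 7.51% of entries were higher and 12.6% lower. That member was xtr-miR-181a-2-3p, at 2.17 times the non-sibling level. With 5 members, 1 call in a comparison does not set the family apart from the background.

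**Figure D3:**
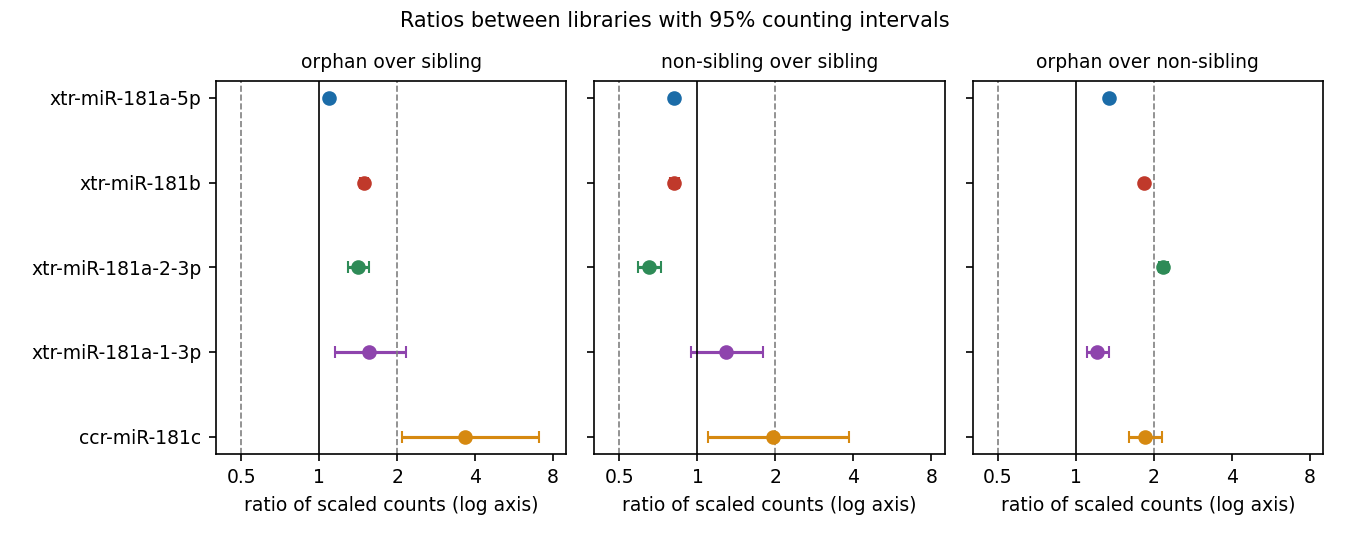
Ratios of scaled counts between libraries (log axis) for the 5 miR-181 entries in orphan over sibling, non-sibling over sibling and orphan over non-sibling, with exact conditional 95% intervals; dashed lines mark 0.5 and 2. ccr-miR-181c lies past 2 in orphan over sibling (3.65) and xtr-miR-181a-2-3p in orphan over non-sibling (2.17).

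Under TMM scaling the median member was higher in the orphan library than in the others. The median log2 ratio of the 5 members was 0.58 in orphan over sibling, beside 0.06 over all 866 entries, and 0.88 in orphan over non-sibling, beside 0.02 over all entries. In non-sibling over sibling it was -0.30, beside -0.03 over all entries. In each comparison the median was the value of xtr-miR-181b. For xtr-miR-181a-5p, which held most of the family's counts, the log2 ratio was 0.12 in orphan over sibling and 0.42 in orphan over non-sibling. The members are not independent, because the miR-181a strands come from shared hairpins, and vertebrate miR-181a and miR-181b come from neighbouring ones. In addition, ccr-miR-181c differs from xtr-miR-181b by its first base only, and whether it counts reads of miR-181b was not tested. All 5 members had a ratio above 1 in orphan over sibling and in orphan over non-sibling under TMM scaling, but these comparisons share the orphan library. In orphan over non-sibling, xtr-miR-181a-1-3p turned to 0.923 times the non-sibling level under total counts, and xtr-miR-181a-5p stood at exactly 1 under quantile normalization. As a position among all entries used, xtr-miR-181a-5p stood at percentile 53.2 in orphan over sibling, and ccr-miR-181c at percentile 96.8. xtr-miR-181b stood at percentile 73.3 there and at percentile 89.5 in orphan over non-sibling.

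**Figure D4:**
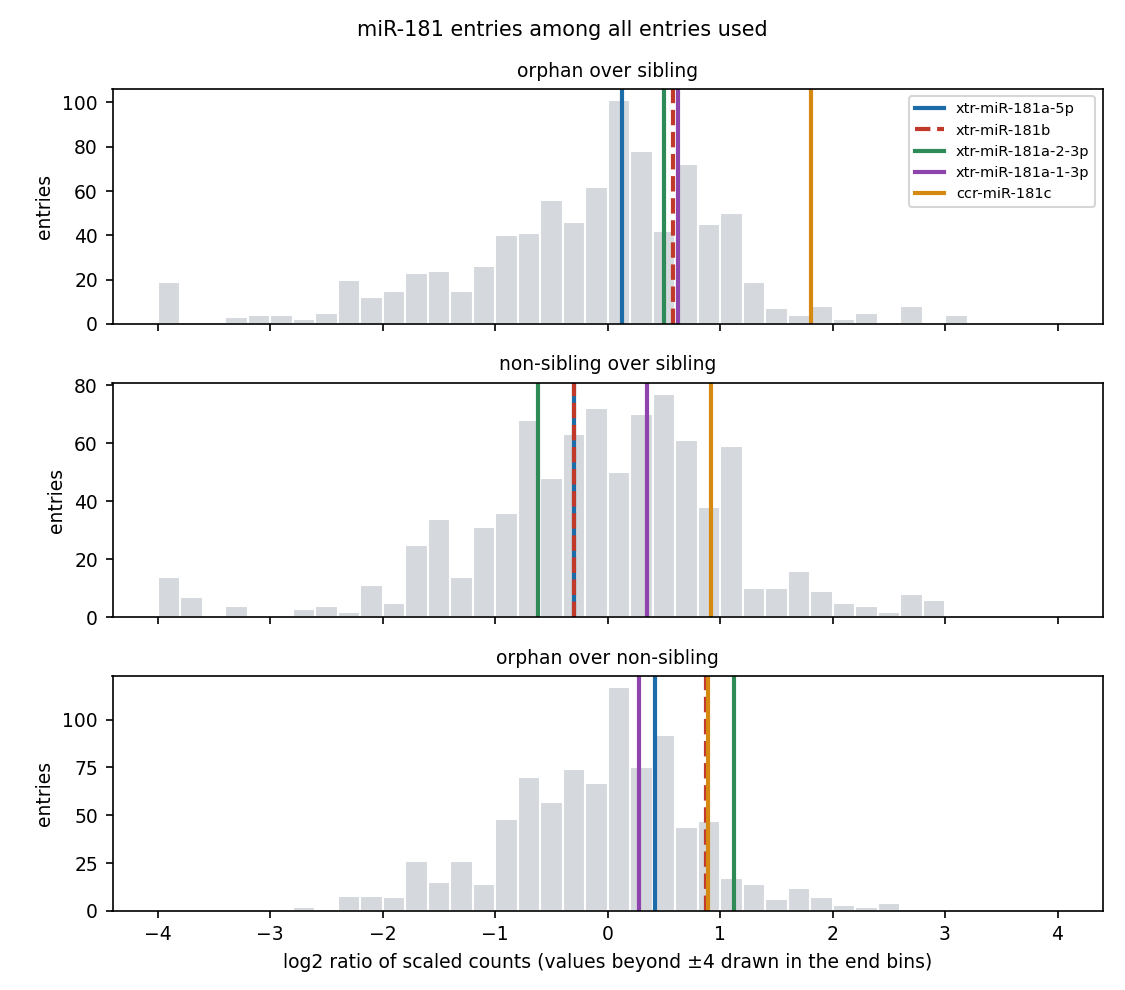
Numbers of the 866 entries used by log2 ratio of scaled counts (0.5 added to each count) for each pair of libraries, with the miR-181 entries as vertical lines and xtr-miR-181b dashed. The guides miR-181a and miR-181b coincide at -0.30 in non-sibling over sibling and lie apart, at 0.12 and 0.58, in orphan over sibling.

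The scaling between libraries moved some of these values. Scaling by total counts shifted the log2 ratio of every entry by 0.24 in orphan over sibling, 0.63 in non-sibling over sibling and -0.39 in orphan over non-sibling. Under it miR-181a was at 1.26 times, and miR-181b also at 1.26 times, the sibling level in the non-sibling library, the other direction from the TMM values. The call of xtr-miR-181a-2-3p in orphan over non-sibling was lost under total counts (1.66) and under TMM over Xenopus entries alone (1.97). ccr-miR-181c passed the size rule in non-sibling over sibling under total counts (3.05), TMM over Xenopus entries (2.01) and quantile normalization (2.53). Its call in orphan over sibling held under every scaling tried, from 3.38 to 4.76 times the sibling level. For xtr-miR-181a-5p the authors' deposited table has a log2 ratio of 0 for non-sibling over orphan on quantile-normalized counts, because the entry took the same rank and hence the same normalized value, 212629, in both libraries. For xtr-miR-181a-2-3p the authors' deposited table gives a log2 ratio of -1.18 for non-sibling over orphan.

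**Figure D5:**
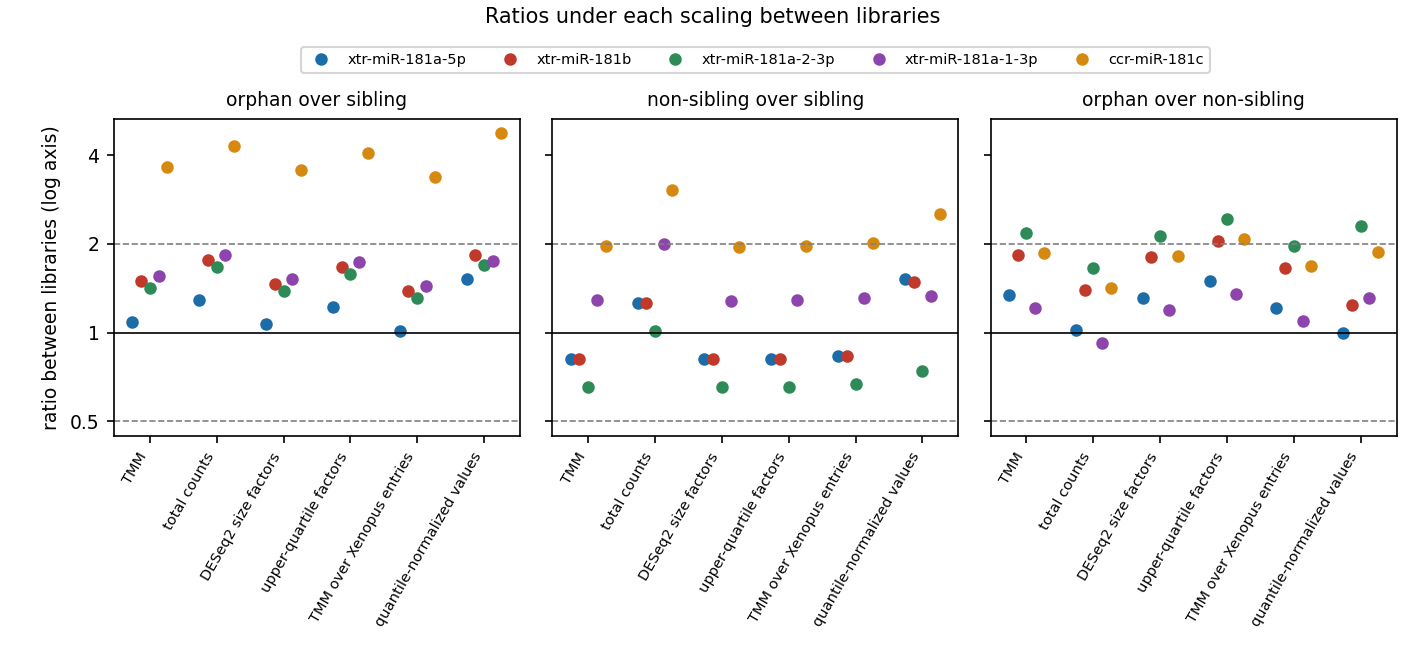
Ratios between libraries (log axis) of the 5 miR-181 entries under TMM and 5 other scalings, without error bars; dashed lines mark 0.5 and 2. ccr-miR-181c stays between 3.38 and 4.76 in orphan over sibling, while miR-181a and miR-181b cross 1 in non-sibling over sibling under total counts and quantile normalization.

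Other microRNAs followed miR-181a closely over the 3 libraries. Among 106 Xenopus entries of other families with at least 1000 counts, the nearest by distance over the log2 ratios to the sibling library was xtr-miR-30d, at a distance of 0.022. It had 4854, 3675 and 4448 scaled CPM in the orphan, non-sibling and sibling libraries, or 1.09 and 0.826 times the sibling level in the orphan and non-sibling libraries. xtr-miR-148b, xtr-miR-199a-3p, xtr-miR-130a and xtr-miR-146b followed at distances of 0.15, 0.16, 0.17 and 0.23. The distances have no interval. xtr-miR-148b had 72 and xtr-miR-130a 38 counts in the sibling library, so counting error limits what their distances show. The pattern rests on 3 libraries, and miR-181a lies near the median of all entries in orphan over sibling, where many entries lie.

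Marker microRNAs of neurons and of other cell types were both counted in every library. The 12 Xenopus entries of the neuron list (miR-9, miR-124, miR-128 and others) summed to 15890 scaled CPM in the orphan, 19524 in the non-sibling and 9789 in the sibling library, with none at 0. Of these, 4 were higher and none lower in orphan over sibling, 5 and none in non-sibling over sibling, and 1 and none in orphan over non-sibling. Over all 866 entries used, 9.12%, 11.2% and 7.51% were higher in these comparisons, and 15.5%, 12.1% and 12.6% were lower. These shares are not matched to the lists in abundance. They include entries with too few counts to be called higher over the sibling library, and entries of several species that count largely the same reads. The eye and sensory organ list had 6 entries (miR-182, miR-183, miR-184, miR-204 and others). These summed to 71885 scaled CPM in the orphan, 39980 in the non-sibling and 57470 in the sibling library. Of these, 1 was higher in orphan over sibling and 2 were lower in non-sibling over sibling. Under TMM scaling the sum of this list had the same order of libraries as miR-181a and miR-181b. The muscle sum did too, but its orphan and sibling values were nearly equal. Of the 9 lists, the others, the neuron list among them, had other orders. With 3 libraries few orders are possible, so a shared order alone does not link a list to miR-181. In orphan over sibling the median log2 ratio was -0.26 for the muscle entries and 0.29 for the eye and sensory organ entries. Under total counts both guides were higher in the non-sibling than in the sibling library. That scaling shifted the log2 ratio of every entry there by the same 0.63, the listed entries included. The order of the lists under it was not compared. In orphan over non-sibling 2 of the 6 eye and sensory organ entries and 4 of 11 muscle entries were higher and none lower, beside the higher xtr-miR-181a-2-3p there. Muscle entries summed to 5315 scaled CPM in the orphan, 3262 in the non-sibling and 5276 in the sibling library. The 8 leukocyte entries summed to 1441, 1278 and 1643 scaled CPM, with 1 entry at 0 in the sibling library and 1 called in each comparison with the non-sibling library.

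Of the other lists, scaled CPM summed to 448, 1343 and 1328 for the 3 gut entries in the orphan, non-sibling and sibling libraries, and to 2939, 4371 and 4161 for the 3 skin entries. The 6 entries of ciliated cells had 94.3, 424 and 222 scaled CPM, the 2 erythrocyte entries 18.4, 33.0 and 8.48, and the 3 oligodendrocyte entries 2.94, 1.98 and 1.41, with 2 of these at 0 in the non-sibling and the sibling library. All 3 gut entries and all 6 ciliated cell entries were lower in orphan over non-sibling, beside 12.6% of all entries used. xtr-miR-181a-2-3p was higher there under TMM scaling, a call that not every scaling kept. In orphan over sibling all 3 gut and 2 of the 6 ciliated cell entries were lower, beside 15.5%. In non-sibling over sibling 2 ciliated cell entries and 1 skin entry were higher, beside 11.2%. Of the 3 skin entries 1 was lower in each orphan comparison. The 1 erythrocyte entry used was higher in both comparisons with the sibling library. The part of cell composition in the miR-181 values was not tested, and fewer cells of a type and less RNA per cell cannot be told apart in these libraries.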

How the data were processed

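The authors' table holds, per the file headers, raw read counts of mature microRNA entries in 3 libraries, that were not normalized. A deposited signal is the authors' quantile-normalized count, and a further set of columns is the log2 ratio of these between libraries, as deposited. No aligner, counting tool or microRNA release is named in the labels or headers (not given in the sources used here), and the labels name a preparation kit for messenger RNA, so the library method is not settled. The members and lists were chosen with earlier results of these data known. The libraries were grouped by their titles.

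Counts were scaled with TMM factors from edgeR 4.0.16 (R 4.3.3) over the 866 entries with a sum of at least 30 counts. The factors were 0.966 for the orphan, 1.27 for the non-sibling and 0.817 for the sibling library. A ratio between libraries has an exact conditional 95% interval (Clopper-Pearson). Ratios within a library and their quotients have exact conditional intervals. Log2 ratios have 0.5 added to each count. The calculation was tested on simulated Poisson counts. Every member was named. Of other species, entries identical to a member and the 3 most abundant others were named, and of other families the 5 nearest to miR-181a. Alternatives were other scalings (DESeq2 1.42.0 size factors among them), no filter and a 1.5-fold size. Python 3.11.15, scipy 1.17.1 and matplotlib 3.10.9 were used.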

Additional observations from a re-analysis of the deposited data

How the results depend on the processing

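No paired analysis was possible because each condition has 1 library, and for the same reason no replicate could be left out. Values below are in the order orphan over sibling, non-sibling over sibling, orphan over non-sibling. For miR-181a the ratio was 1.29, 1.26 and 1.02 under total counts, 1.52, 1.52 and 1 under quantile-normalized values, 1.01, 0.832 and 1.22 under TMM over Xenopus entries, and 1.13, 0.797 and 1.41 without a filter. Its first and last ratios were 1.22 and 1.497 under upper-quartile factors, and 1.07 and 1.32 under DESeq2 size factors. For miR-181b the ratio was 1.77, 1.26 and 1.40 under total counts, and 1.84, 1.48 and 1.24 under quantile-normalized values. Its first and last ratios were 1.67 and 2.05 under upper-quartile factors, and 1.39 and 1.66 under TMM over Xenopus entries. Its last ratio was 1.801 under DESeq2 size factors and 1.93 without a filter. At a size of 1.5-fold 2, 2 and 3 members were called. In non-sibling over sibling xtr-miR-181a-2-3p was lower (0.652) and ccr-miR-181c higher (1.96), while in the orphan comparisons all members called were higher. In non-sibling over sibling 1 member was called under total counts, TMM over Xenopus entries and quantile-normalized values. In orphan over non-sibling 0 members were called under total counts and under TMM over Xenopus entries, and 3 under upper-quartile factors. The share of all entries called is not given at 1.5-fold or under these scalings. These counts of members therefore have no background beside them and say nothing about the family. TMM factors from the 2 libraries compared, chosen after seeing the data, gave the same ratios as the main scaling in both orphan comparisons. No call could therefore change there, and this setting was no check of those calls. In non-sibling over sibling, which had no call, the ratio of miR-181a moved from 0.813 to 0.821. The ratios within a library need no scaling. The quotient of passenger over guide in orphan over non-sibling was 1.51 with miR-181a as the only guide, also chosen after seeing the data. With that guide the passenger quotient stayed within its interval in the other comparisons. Summing the entries of all species left this quotient and that of miR-181b per miR-181a within their intervals. Those entries count largely the same reads, so the sum could hardly change the quotients and is no independent check. Quantile-normalized values have no interval, so calls there rest on the ratio alone. The 12 sibling counts of ccr-miR-181c and the 43 of xtr-miR-181a-1-3p limit what those ratios can show.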
